A study of Homo sapiens with 12 samples.

Results

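The genes described here encode 8 proteins of the minor spliceosome. They were taken by gene name from the deposited gene tables, and each name matched 1 of the 60504 gene entries. The genes were SNRNP25, SNRNP35, SNRNP48, PDCD7, RNPC3, ZMAT5, ZCRB1 and ZRSR2, which encode proteins of the U11/U12 particle and minor splicing factors. No measured value was used to choose them, and all 8 passed the filter on low values in both comparisons.

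The 12 libraries held RNA of T24, an established cell line from a human bladder cancer. In the knockout comparison, 2 libraries labelled U11 knockout were set against 2 control libraries that the labels call untreated. The methods describe CRISPR/Cas9 editing with a pair of guide RNAs against the U11 gene, puromycin selection and the choice of monoclonal lines by their knockout efficiency, which was measured by quantitative PCR and not in these libraries, and they name the guide vector as the control of the transfection. In the overexpression comparison, 6 libraries labelled U11 overexpression were set against 2 libraries labelled untreated. The methods describe transfection of the plasmid pcDNA-U11 and monoclonal selection. The overexpression libraries carried the line labels 79, 86 and 87, with 2 libraries each, and what these labels stand for is not stated in the sources used here. Both comparisons therefore rest on selected clones, and a change from the choice of a clone cannot be told apart from a change from U11. Whether the 2 libraries of a group came from separate cultures is not stated, so the spread between them may be technical.

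Most human introns are removed by the major spliceosome, while a small class with its own conserved splice sites, the U12-type introns, is removed by the minor spliceosome. The U11 snRNA pairs with the 5' splice site of these introns and the U12 snRNA with the branch point, and both act together in a di-snRNP. Some genes for proteins of this di-snRNP carry a repeated copy of the U12-type 5' splice site that is not itself spliced. U11 binds such an element and turns the transcript towards forms that yield no functional protein, a known feedback on the level of the particle. The values used here are given per gene and do not separate such forms, so they cannot show this switch.

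To show which of the 8 genes hold such an element, the letters TATCCTT, the core of the U12-type 5' splice site, were searched on the coding strand of each gene in hg38. A pair of copies whose starts lay at most 20 bases apart was found in 2 of the 8 genes, SNRNP48 and RNPC3. The pairs are printed 5' to 3' with both copies of the motif in capitals:
SNRNP48: gTATCCTTtttgcaaatgaTATCCTT
RNPC3: gTATCCTTtcttgtcgTATCCTT
The SNRNP48 pair lay on the plus strand at chr6:7599736-7599761, in intron 4 of the canonical GENCODE 44 transcript of 9 exons, with 18 bases between the starts of the copies. The RNPC3 pair lay on the plus strand at chr1:103553318-103553340, with 15 bases between the starts. It fell in intron 14 of the canonical transcript and in the 3' UTR of 2 other transcripts. Of 20033 protein-coding genes, 2.44% held such a pair anywhere between their ends, and of the 3527 that span 15000 to 30000 bases, as both of these genes do, 0.595% did. A single copy of the motif was common, with 66.6% of protein-coding genes holding 1 or more. SNRNP25 and ZCRB1 held no copy, SNRNP35, PDCD7 and ZMAT5 held 1 each, and ZRSR2 held 5 with no pair. These matches describe the letters of the reference and not binding. RNPC3 was also the only member with annotated introns that start with A or G followed by this motif, at 2 of its 21 annotated introns.

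The U11 level, as summed TPM (transcript abundance per length, scaled to 1 total per library) of its 2 overlapping entries, came first as a check of the labels. The controls of the knockout comparison had 21.4 and 23.8 TPM, whereas 31.6 and 37.4 TPM were found under the knockout label, so U11 in these libraries went against the knockout label, and every direction given for these libraries rests on the label alone (two-sided exact permutation test of means, p = 0.333, the smallest p this design allows). By limma, U11 was called higher under the knockout label at an unadjusted P under 0.05 with a fold change of at least 1.5. In that comparison 11.8% of all genes tested were called in either direction. Under the overexpression label, U11 stood at 61.9 and 53.6 TPM in line label 87, at 3.98 and 3.72 TPM in line label 86 and at 0.18 and 0.41 TPM in line label 79, against 0.03 and 0.62 TPM in the controls (exact permutation test, two-sided, p = 0.393, with a smallest possible p of 0.0357). That test pools the 3 line labels. By limma at an adjusted P under 0.05, U11 was higher than in the controls in line label 87 (2 of 2 entries) and line label 86 (1 of 2), and not in line label 79 (0 of 2). Both entries also passed the F test among the line labels, where 16% of all genes did. By this TPM, line label 79 was therefore within the range of the controls, and line label 87 held by far the most U11. The untreated cells read 21.4 and 23.8 TPM in the knockout comparison, against 0.03 and 0.62 TPM in the overexpression comparison. Whether the TPM of libraries with so little U11 in their controls ranks the line labels by mature U11 was not tested. The libraries of the 2 comparisons also differed in kind. All 12 were labelled polyA RNA, whereas the methods describe total RNA depleted of ribosomal RNA, and histone genes held 2.77% to 3.43% of TPM and the 10 highest entries 45.5% to 49.6% in the knockout comparison, against 0.01% to 0.02% and 7.06% to 7.56% in the overexpression comparison. Of the epithelial and urothelial markers, 6 of 13 stood at 1 TPM or more in every library, while KRT5, KRT20, TP63, UPK1B, UPK2 and UPK3A were under 1 TPM in all. EPCAM, an epithelial adhesion protein, read 0.82 and 1.23 TPM in the knockout controls, against 0.15 and 0.09 TPM under the knockout label, and from 0.95 to 2.32 TPM in the overexpression comparison. The 13 markers summed to 1841 to 2208 TPM in the knockout comparison and 5541 to 8996 TPM in the overexpression comparison. Of markers of other cell types, PTPRC and CD3E of the leukocytes, PECAM1 and VWF of the endothelium and DES and MYH11 of muscle were under 1 TPM in all libraries. CD68, a lysosomal protein of macrophages, was 1 of 5 leukocyte markers at 1 TPM or more in every library, at 1.06 to 6.31 TPM, and CD14 reached at most 1.18 TPM. The 5 leukocyte markers summed to 1.45 to 3.99 TPM in the knockout comparison and 3.64 to 8.09 TPM in the other, and the 2 muscle markers to at most 0.70 TPM in both. CDH5, the cadherin of the endothelium and 1 of 3 endothelial markers, read 4.85 and 4.75 TPM in the knockout controls, against 0.03 TPM in both libraries under the label (log2 fold change -2.49, standard error 0.12, adjusted P = 0.0047 by limma). In the overexpression comparison it read 3.43 and 3.08 TPM in the controls, against 34.1 and 32.2 TPM in line label 79 (log2 fold change 3.01, standard error 0.13, adjusted P = 0.000138 by limma) and 4.17 to 5.28 TPM in line labels 86 and 87. The part of CDH5 and of these other markers in the members' values was not tested.

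All 8 genes were expressed in every library, at levels that differed widely among them. In such bulk RNA, fewer cells with a transcript and less of it per cell cannot be told apart. SNRNP25, which encodes a ubiquitin-like fold protein of the U11 particle, was the highest in every library. In the controls of the overexpression comparison it stood at 176 ± 2.75 TPM (SD, n = 2), above 92.7% of the 11660 protein-coding genes at 1 TPM or more. ZCRB1, a zinc finger protein with an RNA-binding domain, followed at 55.2 ± 2.31 TPM, then ZMAT5 at 43.1 ± 3.32 TPM and PDCD7 at 34.5 ± 2.10 TPM. ZRSR2, which recognises the 3' splice site of U12-type introns, stood at 19.4 ± 0.70 TPM, SNRNP48 at 16.8 ± 0.24 TPM, SNRNP35 at 12.8 ± 0.83 TPM and RNPC3 at 12.4 ± 0.78 TPM. In this order the values of neighbours did not overlap, except for SNRNP35 and RNPC3, which were above 30.2% and 29.4% of these protein-coding genes. SNRNP25 alone held 44.8% to 51.0% of the summed TPM of the 8 genes in the 8 libraries of the overexpression comparison.

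The order was nearly the same in the controls of the knockout comparison, but the levels were lower. SNRNP25 had 66.5 ± 3.01 TPM (SD, n = 2), ZCRB1 at 34.2 ± 3.61 TPM, ZMAT5 at 20.5 ± 1.59 TPM, PDCD7 at 17.6 ± 0.77 TPM, SNRNP48 at 9.67 ± 0.93 TPM, SNRNP35 at 8.18 ± 0.41 TPM, ZRSR2 at 7.15 ± 0.81 TPM and RNPC3 at 4.29 ± 0.89 TPM. The ratio of these controls to those of the overexpression comparison ranged from 0.346 for RNPC3 to 0.637 for SNRNP35, beside a median of 0.5004 over protein-coding genes. Protein-coding genes together held 43.98% to 47.1% of TPM in the libraries of the knockout comparison, against 94.2% to 94.9% in the others. Once the protein-coding genes were brought to an equal total, the ratios were 0.738 to 1.36. The kind of library cannot be told apart from the comparison, so each comparison was read only against its own controls. The spread between the 2 libraries of a group differed among the genes, from a coefficient of variation of 0.149% for ZMAT5 in line label 86 to 20.8% for RNPC3 in the knockout controls, the member with the lowest level.

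**Figure D1:**
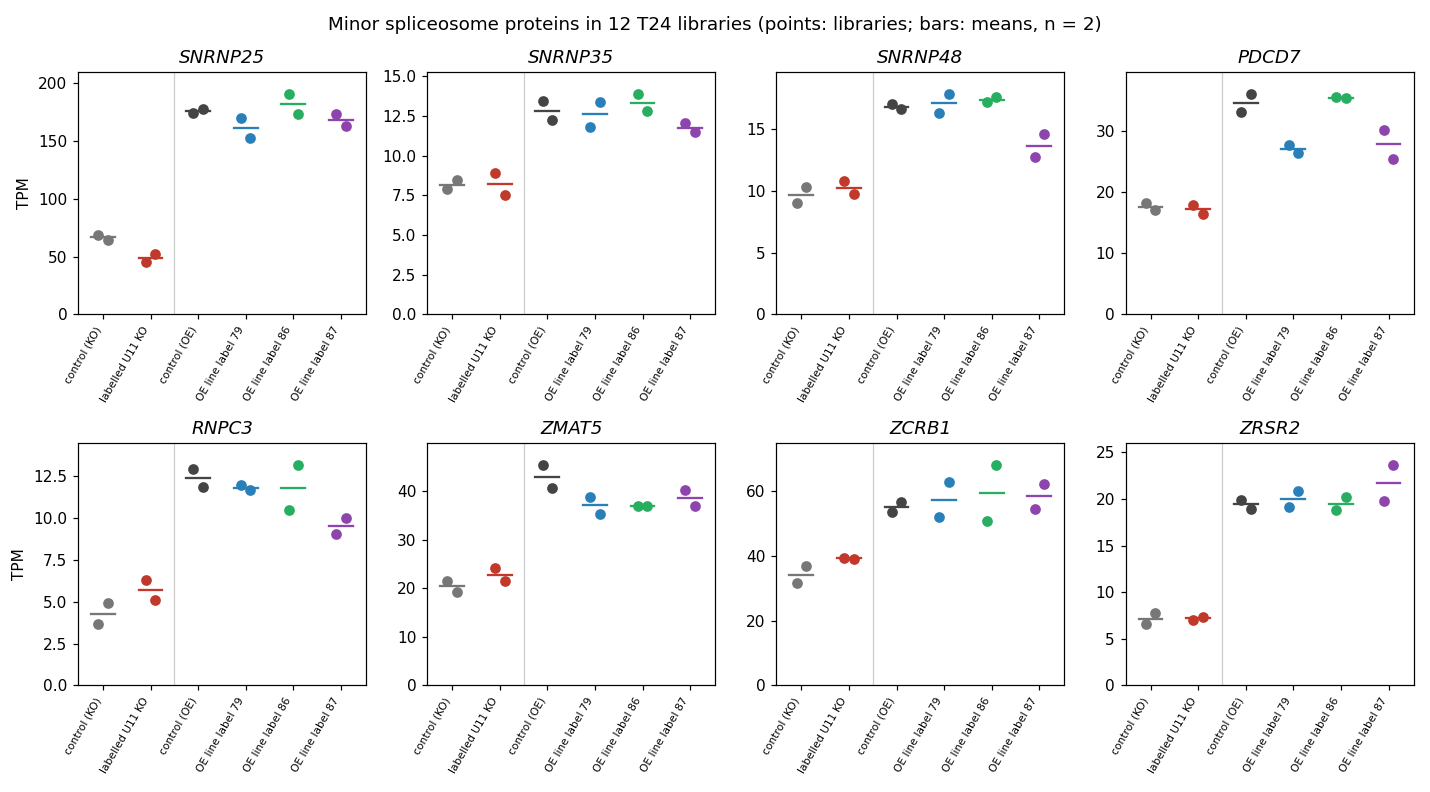
TPM of the 8 genes in the 12 libraries, on linear axes that start at 0, with 1 point per library and a bar at the mean of each group (n = 2). The 4 libraries of the knockout comparison, left of the grey line, are lower for every gene than the 8 of the overexpression comparison, and in SNRNP48 and RNPC3 the lowest points of the overexpression comparison are those of line label 87.

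Some members have a counterpart in the U1 or U2 particle of the major spliceosome, which gave a scale for these levels. SNRNP35 is the U11 counterpart of SNRNP70, the U1-70K protein, and stood at 5.17% ± 0.27 of its TPM (SD, n = 2) in the overexpression controls and 5.15% ± 0.40 (SD, n = 6) under the overexpression label. In the knockout comparison this share was 9.84% ± 0.61 (SD, n = 2) in the controls and 11.02% ± 0.99 under the knockout label. RNPC3, the U11/U12-65K protein that bridges both snRNAs, stood at 9.20% ± 0.62 of SNRPB2 and 23.9% ± 0.75 of SNRPA in the overexpression controls. In line label 87 the RNPC3 share was 7.10% ± 0.30 of SNRPB2 and 14.2% ± 2.13 of SNRPA, in line label 79 it was 8.59% ± 0.77 and 16.9% ± 4.16, and in line label 86 it was 9.19% ± 0.53 and 21.7% ± 6.18. As a share of SNRPA, the libraries of line labels 79 and 87 overlapped (13.9% to 19.8% against 12.7% to 15.7%). Both lay below the controls, but SNRPA itself was higher in both. Its TPM was 60.3 and 83.6 for line label 79 and 57.4 and 78.6 for line label 87. The overexpression controls had 52.9 and 50.6 TPM of SNRPA, and line label 86 had 60.2 and 50.4 TPM. RNPC3 itself was close to the controls in line label 79 (log2 fold change -0.06 by limma). The lower share of SNRPA there is therefore not a measure of less RNPC3. ZMAT5 stood at 16.5% ± 1.999 of SNRPC and ZRSR2 at 18.1% ± 0.41 of U2AF1 in the same controls. The U2AF1 share leaves out a second entry of like name, U2AF1L5. That entry stood at 109 and 110 TPM in these controls, beside 108 and 106 TPM for U2AF1. As a share of both entries together, ZRSR2 would be lower. Each of these members was thus less abundant than its counterpart in the libraries of both comparisons.

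The knockout comparison asked whether the genes differ between T24 cells labelled as lacking U11 and controls. None of the 8 was called differentially expressed by limma, either at an unadjusted P under 0.05 with a fold change of at least 1.5 (11.8% of the 14356 genes tested) or at an adjusted P under 0.05 with any fold change (7.82% of genes). At an unadjusted P under 0.05 alone, 1 member passed (SNRNP25), where 30.1% of all genes did. Of the log2 fold changes, 5 were above 0 and 3 below, with a median of 0.05 beside 0.11 over all genes tested. Under median ratio scaling the median over all genes was -0.02, and SNRNP48 and ZRSR2 then went from 0.08 and 0.01 to -0.06 and -0.12, so small differences of these genes have no settled direction.

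Of the U11 proteins, SNRNP25 differed most. It stood at 68.7 and 64.4 TPM in the controls, against 45.4 and 52.1 TPM under the knockout label. Both libraries under the label were thus below both controls. The log2 fold change by limma was -0.44 (standard error 0.11, 95% confidence interval -0.73 to -0.16, adjusted P = 0.0771), which is -0.55 against the median of all genes. With median ratio scaling it was -0.59 (adjusted P = 0.0903) and SNRNP25 was then called at the unadjusted P with the fold change. No other setting that kept these controls and both thresholds called it. Over the alternatives with its own controls the adjusted P ranged from 0.0656 to 0.262. POLR3K, which overlaps SNRNP25 on the opposite strand, stood at 19.7 and 19.8 TPM in the controls, against 14.8 and 12.3 TPM under the label, and its log2 fold change was -0.52 (standard error 0.13, adjusted P = 0.0780). Without a stated strand setting, reads of the 2 genes where they overlap cannot be told apart.

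The other proteins of the U11 particle were close to their controls. SNRNP35 stood at 7.89 and 8.47 TPM in the controls, against 8.88 and 7.501 TPM under the label. SNRNP48, a zinc finger protein of the particle, stood at 9.01 and 10.3 TPM in the controls, against 10.8 and 9.75 TPM under the label. PDCD7 stood at 18.1 and 17.0 TPM in the controls, against 17.8 and 16.4 TPM under the label. For these 3 genes the values of the groups overlapped, and the log2 fold changes were 0.00, 0.08 and -0.04 with confidence intervals inside a fold change of 1.5 in either direction.

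RNPC3, which holds the tandem element printed above, stood at 3.66 and 4.92 TPM in the controls, against 6.32 and 5.10 TPM under the label. Both libraries under the label were higher, the lower of them by little. The log2 fold change of 0.35 (standard error 0.18, 95% confidence interval -0.12 to 0.82, adjusted P = 0.268) was not past the threshold, and its interval reached beyond a fold change of 1.5. Without the first knockout control it was 0.17, and without the second 0.52. SNRNP48, which holds the other element, did not move with it, at 0.08. AMY2B, which overlaps RNPC3 on the same strand, was at 0.18 to 0.57 TPM in these 4 libraries.

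ZMAT5 stood at 21.6 and 19.3 TPM in the controls, against 24.2 and 21.5 TPM under the label, with overlapping values. ZCRB1 stood at 31.7 and 36.8 TPM in the controls, against 39.5 and 39.1 TPM under the label, with no overlap, but its log2 fold change was only 0.20 (standard error 0.11, adjusted P = 0.303). ZRSR2 stood at 6.58 and 7.72 TPM in the controls, against 7.03 and 7.38 TPM under the label, inside the range of the controls. The groups did not overlap for 3 of the 8 members (SNRNP25, RNPC3 and ZCRB1), while this held for 60.2% of all genes tested. For 6 of the 8 members the 95% confidence interval lay within a fold change of 1.5 in either direction, the exceptions being SNRNP25 and RNPC3.

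The overexpression comparison asked whether the genes differ between cells labelled as overexpressing U11 and their controls. Over all 6 libraries, 0 of the 8 genes were called by limma at an unadjusted P under 0.05 with a fold change of at least 1.5 (1.93% of the 15768 genes tested) and 0 at an adjusted P under 0.05 (0.171% of genes). At an unadjusted P under 0.05 alone, 1 member passed (ZMAT5), where 6% of all genes did. The log2 fold changes had a median of -0.06 beside -0.02 over all genes, and none was larger in size than 0.21. The 95% confidence intervals of all 8 lay within a fold change of 1.5 in either direction. This fit treated the 6 libraries as separate, although pairs of them share a line label. Its intervals and P values therefore do not take the line label as the unit.

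ZMAT5, the U11/U12-20K zinc finger protein, was the member whose groups did not overlap (1 of 8, where 9.87% of all genes had no overlap). The controls had 45.4 and 40.7 TPM of it, and the libraries under the label 35.4 to 40.2 TPM, with a median of 37.0 TPM. Each of the 6 libraries was below the control of its own library series, the group of libraries that share a prefix of their label, by 0.13 to 0.29 on the log2(TPM + 1) scale. These 6 differences rest on the values of 2 controls and are not independent. The log2 fold change of -0.19 (standard error 0.08, 95% confidence interval -0.38 to -0.00) had an adjusted P of 0.831 by limma. The value rested in part on the higher control, since without it the log2 fold change was -0.11.

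**Figure D2:**
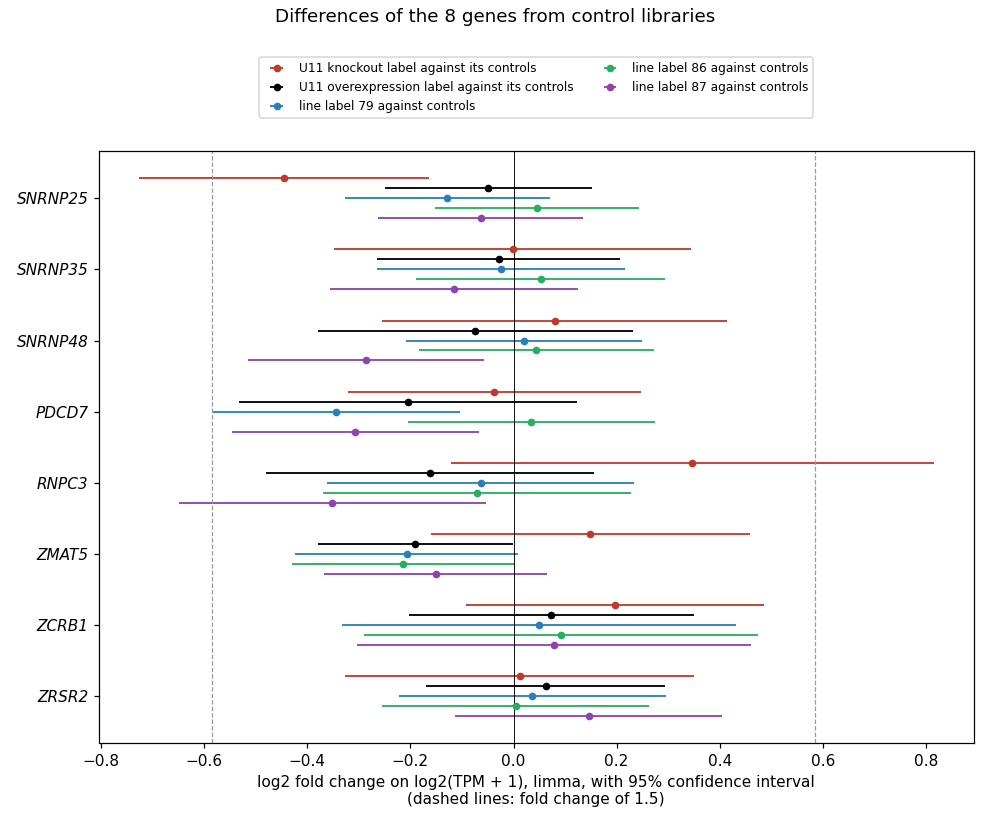
Log2 fold change on log2(TPM + 1) with its 95% confidence interval from limma for each gene, for the knockout label, the overexpression label and each line label against its controls (horizontal axis, log2 scale; dashed lines, a fold change of 1.5). Each point lies between the dashed lines, and the intervals of SNRNP25 (knockout label) and RNPC3 (knockout label and line label 87) extend past them.

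Because the U11 TPM differed so widely between the line labels, each was also set against the 2 controls in a fit of 4 groups of 2 libraries. These contrasts share their controls. No member was called at an unadjusted P under 0.05 with a fold change of at least 1.5 in line label 79 (7.95% of genes), line label 86 (3.6%) or line label 87 (5.13%), and none at an adjusted P under 0.05 (9.91%, 1.96% and 3.68% of genes). At an unadjusted P under 0.05 alone, 1 member passed in line label 79 (PDCD7), 0 in line label 86 and 3 in line label 87 (SNRNP48, PDCD7 and RNPC3), where 24.1%, 13.5% and 17.8% of all genes did. In these contrasts no log2 fold change of a member was larger in size than 0.35, which was that of RNPC3 in line label 87.

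SNRNP48 stood at 17.0 and 16.7 TPM in controls, 16.3 and 17.9 TPM in line label 79, 17.2 and 17.6 TPM in line label 86, and 12.7 and 14.6 TPM in line label 87. Both libraries of line label 87 were thus below the other 6, which lay close together. The log2 fold change of line label 87 was -0.29 (standard error 0.09, 95% confidence interval -0.51 to -0.06, adjusted P = 0.183), while those of line labels 79 and 86 were 0.02 and 0.04. Set against each other by limma, line label 87 differed from 86 by -0.33 (adjusted P = 0.108) and from 79 by -0.31 (adjusted P = 0.103), neither past the threshold.

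RNPC3 was also lowest in line label 87, while the order of the other groups differed from that of SNRNP48. It stood at 12.9 and 11.8 TPM in controls, 11.96 and 11.6 TPM in line label 79, 10.5 and 13.1 TPM in line label 86, and 9.02 and 9.97 TPM in line label 87. Both libraries of line label 87 were again the lowest of the 8, although the lower library of line label 86 came close to them. The log2 fold change of line label 87 was -0.35 (standard error 0.12, 95% confidence interval -0.65 to -0.05, adjusted P = 0.207 by limma), and it differed from line label 86 by -0.28 (adjusted P = 0.273). SNRNP48 and RNPC3, the 2 members with the tandem element, were therefore both lowest in the line label with the highest U11 TPM. The test of neither passed after adjustment, and the part of U11 in this was not tested. The share of all genes with both libraries of line label 87 as the lowest was not counted. At an unadjusted P under 0.05 by limma, 17.8% of all genes tested differed between line label 87 and the controls. The lowest library of the 8 was also one of line label 87 for SNRNP35 and PDCD7, in which no such pair was found.

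PDCD7, which encodes the U11-59K protein, was also low in line label 87 but did not follow the U11 TPM. It stood at 33.0 and 36.0 TPM in controls, 27.6 and 26.3 TPM in line label 79, 35.4 and 35.2 TPM in line label 86, and 30.1 and 25.4 TPM in line label 87. All 4 libraries of line labels 79 and 87 were below the other 4, whereas the U11 TPM in line label 79 was within the range of the controls. The log2 fold change was -0.34 (standard error 0.10, adjusted P = 0.0884 by limma) in line label 79 and -0.31 (standard error 0.10, adjusted P = 0.174) in line label 87, and 0.03 in line label 86. Line label 86 was above 79 by 0.38 (standard error 0.10, adjusted P = 0.0561), the difference with the lowest adjusted P of any member in any contrast. This adjusted P was 0.0474 with protein-coding rescaling, and 0.0439 and 0.0437 without the first and the second library of line label 87, which are past the threshold, and up to 0.204 with a library of line label 79 left out.

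The remaining members differed less between line labels. SNRNP25 stood at 174 and 178 TPM in controls, 170.1 and 153 TPM in line label 79, 191 and 173 TPM in line label 86, and 174 and 163 TPM in line label 87. SNRNP35 read 13.4 and 12.2 TPM in controls, 11.8 and 13.4 TPM in line label 79, 13.9 and 12.8 TPM in line label 86, and 12.1 and 11.5 TPM in line label 87. Its mean was lowest in line label 87, with a difference of -0.12 from the controls (log2 scale, standard error 0.10, adjusted P = 0.615 by limma), and those libraries overlapped line label 79. ZRSR2 read 19.9 and 18.9 TPM in the controls and from 18.8 to 23.6 TPM, with a median of 19.99 TPM, in the 6 libraries, the highest being a library of line label 87. For these 3 genes the ranges of controls and overexpression libraries overlapped.

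**Figure D3:**
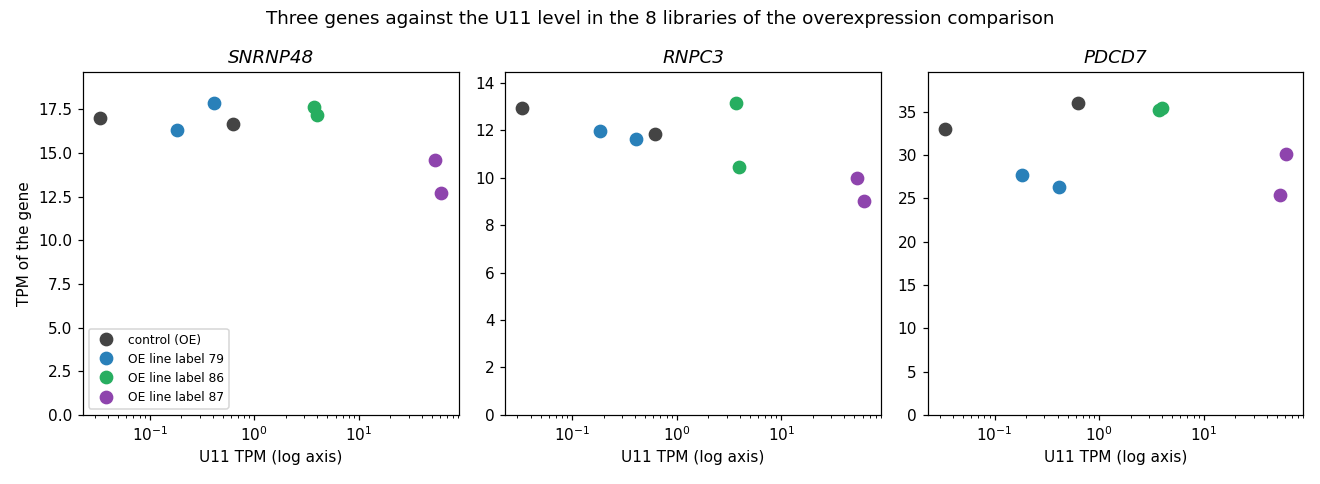
TPM of SNRNP48, RNPC3 and PDCD7 (vertical axes, linear from 0) against the summed U11 TPM (horizontal axes, log scale) in the 8 libraries of the overexpression comparison, 1 point per library. SNRNP48 and RNPC3 are lowest in the 2 libraries with 53.6 and 61.9 TPM of U11, while PDCD7 is as low in line label 79, where U11 is at 0.18 and 0.41 TPM.

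The test of a difference among the 3 line labels was the F test by limma in the same fit. None of the 8 members passed at an adjusted P under 0.05, where 16% of all genes did, and 2 members (SNRNP48 and PDCD7) passed at an unadjusted P under 0.05, where 30.5% did. The adjusted P was 0.0745 for PDCD7, 0.0933 for SNRNP48 and 0.243 for RNPC3, and at least 0.362 for the other 5. With the library series as a block it was 0.0666 for SNRNP48 and 0.0779 for PDCD7. Without the first library of line label 87, the value for SNRNP48 was 0.345 and its log2 fold change in that line label -0.19, so the low level of SNRNP48 rested in part on this library. For RNPC3 that log2 fold change was -0.29 without it. For PDCD7 the log2 fold change in line label 87 was -0.43 without the first library and -0.19 without the second.

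The overexpression comparison came from 2 library series, R17018 with replicate 1 of each line label and control 3, and R18019 with replicate 3 and control 4. ZCRB1 was the member that followed the series most. It stood at 53.5, 52.1, 50.9 and 54.5 TPM in the control and line labels 79, 86 and 87 of R17018, and at 56.8, 62.7, 68.0 and 62.3 TPM in those of R18019. It was higher in R18019 in 4 of 4 groups, by 0.24 on the log2(TPM + 1) scale (standard error 0.06, adjusted P = 0.200 by limma with the groups as a term). Against the controls, the log2 fold change of ZCRB1 was 0.07 (standard error 0.12, adjusted P = 0.955). Within series, the mean log2 difference from the control was -0.03 in R17018 and 0.18 in R18019. PPHLN1, which overlaps ZCRB1 on the opposite strand, stood between 38.5 and 51.2 TPM in these 8 libraries.

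Over the 8 members and 3 line labels, the difference from the control of the same series had the same sign in both series in 14 of 24 cases. Cases of a gene share the same controls and are not independent. SNRNP48 in line label 87 was below the control of its own series by 0.39 in R17018 and 0.18 in R18019 on the log2(TPM + 1) scale. RNPC3 in line label 87 was below it by 0.48 and 0.23. PDCD7 in line label 79 was below it by 0.25 and 0.44, and in line label 87 by 0.13 and 0.49. ZRSR2 was below its series control in all 3 libraries of R17018, by at most 0.08, and above it in all 3 of R18019, by up to 0.30.

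**Figure D4:**
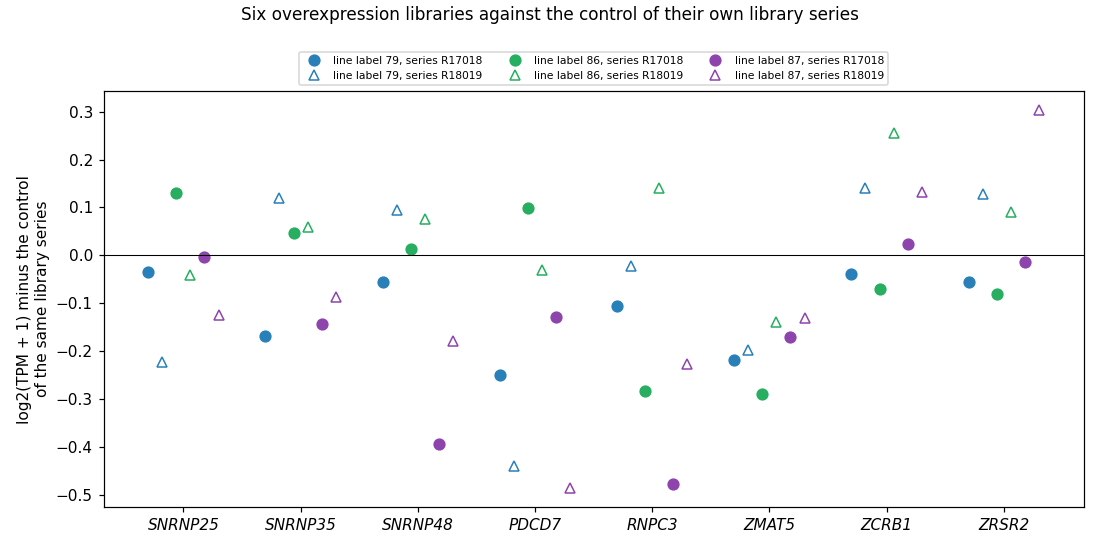
Difference of log2(TPM + 1) between each of the 6 overexpression libraries and the control of its own library series, for the 8 genes (filled circles, R17018; open triangles, R18019; colours, line labels). All 6 points of ZMAT5 lie below 0, both points of line label 87 lie below 0 for SNRNP48, RNPC3 and PDCD7, and those of ZCRB1 and ZRSR2 are higher in R18019.

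Other proteins that act in the minor spliceosome were counted from a list of 9 genes. In the knockout comparison 0 of the 9 were called in either direction (median log2 fold change 0.09), as were 0 of 9 in the overexpression comparison (median -0.07). Of all genes tested, 11.8% and 1.93% were called in these comparisons, and 7.95% in line label 79. In line label 79, 1 of the 9 was called: RBM48, a partner of ARMC7 in the minor spliceosome, fell by 0.60 on the log2 scale (standard error 0.15, adjusted P = 0.0520 by limma). RBM48 stood at 6.97 and 7.27 TPM in the controls, against 3.85 and 4.90 TPM in line label 79. RBM41 was higher there by 0.53 (adjusted P = 0.0389), which is under a fold change of 1.5. None of the 9 was called in line labels 86 and 87 (3.6% and 5.13% of all genes). By the F test among line labels 0 of 9 passed, as with the 8 members, where 16% of all genes did.

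The shared parts of the spliceosome, and the U1 and U2 proteins of the major spliceosome, were counted in the same way. None of the 8 SF3B proteins, the 7 Sm core proteins, the 16 tri-snRNP proteins or the 10 U1 and U2 proteins was called in the knockout or the overexpression comparison. Of all genes tested, 11.8% and 1.93% were called in these comparisons, and 7.82% passed at an adjusted P under 0.05 in the knockout comparison by limma. At an adjusted P under 0.05 with any fold change, 1 of the 10 U1 and U2 proteins passed in the knockout comparison: SF3A3, a subunit of the U2 particle, fell by 0.46 on the log2 scale (standard error 0.08, adjusted P = 0.0452 by limma), from 72.9 and 74.9 TPM to 53.8 and 53.1 TPM. Median log2 fold changes of the 4 lists were -0.03, 0.01, -0.04 and -0.12 in the knockout comparison and -0.03, -0.02, -0.01 and -0.01 in the overexpression comparison. Among line labels, PRPF3 and PRPF4, 2 of the 16 proteins of the tri-snRNP, passed the F test (adjusted P = 0.0314 and 0.00419), and none of the SF3B, Sm core, U1 or U2 proteins did. Of all genes tested, 16% passed it.

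Of the other snRNAs of the minor spliceosome, U12, U4atac and U6atac were seen mainly in the knockout comparison. In the overexpression comparison, the entries of U12, U4atac and U6atac were each at or under 0.75 TPM in all 8 libraries, so their levels could not be set beside those of the proteins. In the knockout comparison, RNU4ATAC stood at 6.49 and 10.9 TPM in the controls, against 10.3 and 9.88 TPM under the label, and RNU6ATAC at 7.86 and 9.21 TPM and at 10.2 and 12.6 TPM. RNU12 was listed under 2 overlapping entries that moved in opposite directions, from 64.8 and 67.1 TPM to 0 in both libraries for the one and from 4.93 and 4.78 TPM to 28.8 and 28.3 TPM for the other. How reads were divided between overlapping entries was not tested, and no direction is given for U12.

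The genes whose pattern was most like the mean of the 8 members were found over the 12 libraries, on log2(TPM + 1) less the mean of the controls of the same comparison. Of 8837 genes compared, GPALPP1 had the highest Pearson correlation (r = 0.96), and ARGLU1 (0.96), C17orf62 (0.95) and COG3 (0.95) were also among the 5 highest. The mean of the members itself moved little, between -0.15 in the first library of line label 87 and 0.08 in the first library labelled U11 knockout. These correlations are a description of 12 libraries that share cells, controls and series.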

How the data were processed

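The authors trimmed the reads with fastp, aligned them to hg38 with Hisat2 and quantified genes with Stringtie. For each of 60504 gene entries, the authors deposited the coverage signal (mean read depth per base), FPKM and TPM. The authors obtained differential genes with DESeq2. The files used here give no counts, so limma 3.58.1 in R 4.3.3 (lmFit, eBayes with a mean-variance trend) was run on log2(TPM + 1) over genes that reached 1 TPM in 2 or more fitted libraries, with Benjamini-Hochberg adjustment over all of them. A fold change is on this log2(TPM + 1) scale and understates that of low genes. A gene was called if its unadjusted P was under 0.05 and its fold change 1.5 or more, beside which counts at an adjusted P under 0.05 are given. Intervals of 95% are from limma and are not adjusted for the number of genes. The U11 level was compared with an exact permutation test.

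Aligned bases, from the ratio of coverage to FPKM, ranged from 9.07 to 15.3 gigabases per library, and the mean read depth over the members from 7.93 to 337. TPM keeps no depth, and the precision of a value is that of the spread between libraries. Of the entries, 56558 were found by identifier in GENCODE 44. Sequences were read from hg38 with Python 3.11.15 and pandas 2.3.3, and figures drawn with matplotlib 3.10.9.

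The 8 members, the gene lists and the comparisons of line labels were chosen with earlier results of these data known. All members are named in every comparison, and other genes where a list member passed a call, as a counterpart, as an overlapping gene or for likeness. The overlapping genes were chosen after their files were seen. A marker gene and a gene of the likeness ranking are not reported here. Same-numbered libraries of the knockout comparison did not deviate together (r = 0.0244 over 14356 genes). The fit was tested on simulated data, in which 200 genes were changed 2-fold: 184 were recovered of 13779 genes in a simulated knockout comparison, with 144 unchanged genes called, and 195 of 15300 in a simulated overexpression comparison, with 104 unchanged genes called. The simulated overexpression libraries held no differences between line labels. In the data, 16% of genes differed between line labels at an adjusted P under 0.05 by the limma F test. The simulated recovery therefore does not give that of the real overexpression fit.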

Additional observations from a re-analysis of the deposited data

How the results depend on the processing

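Without a fold change threshold, 1 member was called in the knockout comparison (SNRNP25) and 1 in the overexpression comparison (ZMAT5), by construction of the setting. With median ratio scaling 1 was called in the knockout comparison (SNRNP25). With all 4 controls, 1 was called in the overexpression comparison (ZRSR2, 0.73). The ratio of the knockout controls to the overexpression controls had a median of 0.5004 over protein-coding genes. With the controls of the other comparison, 7 members were called in each, a count not read as particular to the members, and the cause was not tested. In that setting the log2 fold changes of the knockout comparison were -0.66 for SNRNP48, -1.002 for RNPC3, -0.89 for ZMAT5 and -1.32 for ZRSR2, and those of the overexpression comparison 1.34 for SNRNP25, 0.67 for SNRNP48, 0.73 for PDCD7, 1.19 for RNPC3 and 0.85 for ZMAT5, each opposite in sign to the value against its own controls.

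The counts stayed at 0 with each library left out in turn (0 to 0 members called in each of the 6 counts), with a pseudocount of 0.1, FPKM, protein-coding rescaling, no filter, 1 TPM in every library, no trend, the mean of each line label, the library series as a block, and coverage or an adjusted P with any fold change, which were added after seeing the data, wherever each was run. With the replicate number as a replicate block, 0 members were called in the knockout comparison, and the adjusted P of SNRNP25 was 0.167. Of 664 recomputed log2 fold changes, 646 kept their direction and side of the threshold or were past it in neither setting, and 45 of these changed sign while past it in neither. For the difference of PDCD7 between line labels 86 and 79, the adjusted P by limma ranged from 0.0437 to 0.204 over the alternatives, on both sides of the threshold. Where a left-out library left 1 in its group, that library was assumed to vary like the other groups. The spread of 2 libraries limits the intervals, and those of SNRNP25 and RNPC3 in the knockout comparison reached past a fold change of 1.5.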
